A study of Mus musculus with 12 samples.

Results

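The 38 genes described here are regulators and markers of neural induction, chosen by name: 5 early neural Sox and Pax genes, 4 proneural bHLH genes, 6 genes of the Notch pathway, 2 Olig genes, 9 regional patterning genes, 3 POU genes, 7 genes for cytoskeleton, adhesion and lipid carriage, and 2 other regulators. They were followed among 21728 protein-coding genes of the mouse genome. For each gene a window was set at the transcription start site (TSS) with 10 kb on each side, and the read-pair ends in called anchors that overlapped the window were summed. Distal pairs were the read pairs that ran from those anchors to an anchor 20 kb to 1 Mb away.

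The study compared mouse embryonic stem cells (ESC) of the E14Tg2A strain, grown in DMEM with 100 U/mL of leukemia inhibitory factor (LIF), with neuronal committed cells (NCC), which were the same ESC after 48 h with 1 uM retinoic acid in medium without LIF. Hi-C, which reads genome contacts at large, was run on both cell types, as was HiChIP, which enriches contacts bound by a chosen protein, with antibodies to FGFR1, a growth factor receptor that also has a nuclear form, and to CTCF, the architectural factor found at loop and domain borders. Each of the 6 combinations had 2 replicates, and the authors merged them into 1 table. All comparisons below therefore set 1 pooled library against another, without replicate error and without a test, and every 95% interval covers counting error only. One ES cell line, 1 inducer and 1 time point were studied. The tables hold contacts and no transcripts, so the identity of the cells could not be checked from marker expression.

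Neural induction turns pluripotent cells into neural progenitors, and in culture retinoic acid drives this step once LIF is removed. Sox, Pax and POU factors hold the progenitor state, the Zic, Otx, Gbx, En, Irx and Lmx families set position along the neural tube, and proneural bHLH factors push single cells toward the neuron. Delta ligands expressed under those bHLH factors activate Notch in the neighbouring cells, where Hes repressors keep the progenitor state.

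Depth differed by assay. Hi-C of ESC summed to 20790622 read pairs and Hi-C of NCC to 21279750, while the ESC and NCC sums were 2679131 and 3232003 for FGFR1 HiChIP, and 1226039 and 1065662 for CTCF HiChIP. Changes are given as log2 of NCC over ESC after scaling to these totals. A gene was called when it had 20 or more ends (or pairs) in both libraries together and differed by at least 0.32 in Hi-C or 0.58 in HiChIP (1.5-fold) on this scale; a window without an anchor in 1 of the libraries has no ratio. Anchors had been called in each library on its own. The change in ends followed the change in the length of called anchor. Spearman's rho across other genes was 0.888 in Hi-C, 0.853 in FGFR1 HiChIP and 0.811 in CTCF HiChIP (16670 or more genes in each). Anchor length or the ratio per kb of anchor is therefore given for many of the larger changes at the neural induction genes. It is not given for the lists of related genes.

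Most of these genes lay in windows of high contact. In ESC Hi-C, 29 of the 38 fell in the upper 5 deciles of all protein-coding genes by their number of ends, and 10 fell in the highest decile. Their median was 26.1 ends per 1000000 of all ends, against 15.7 for the other genes. The median anchor length in a window was 15.7 kb, against 12.1 kb. The windows were also rich in GC (median 49.5% against 44.8%) and in CpG (25.2 per kb against 12.8), with 33 of 38 above the median CpG density of other genes. GATC sites, at which every anchor in the 6 libraries began and ended, were slightly fewer (45.5 against 49.0 a window). In 7 windows lay the start of another coding gene (Zic4 beside Zic1, Zic5 beside Zic2, Timm50 beside Dll3, Cerkl beside Neurod1, Pank4 beside Hes5, Mc1r beside Tubb3 and Smpdl3a beside Fabp7), and ends there cannot be assigned to 1 gene.

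The promoters (250 bases before to 50 after the RefSeq start, GRCm38.p6) of 30 of the 38 genes were in the sequence table used. They held a median of 20.5 CpG, against 14.0 in 16403 promoters of other genes. An E-box, the site class of bHLH factors (CANNTG on either strand), was present in 15 of the 30, against 68.3% of the other promoters. The core site of RBPJ, the DNA-binding partner of Notch (TGGGAA on either strand), was present in 23.3% against 24.2%. The retinoic acid receptor half-site AGGTCA, on either strand, was present in 10.0% against 14.0%. A choice of 6 promoters is shown, with E-box and RBPJ letters in capitals: Neurog1 at chr13:56252131-56252430 (minus strand), Neurod1 at chr2:79456587-79456886 (minus strand) and Zic1 at chr9:91365719-91366018 (minus strand), whose windows gained many FGFR1 HiChIP ends; En1 at chr1:120602237-120602536 (plus strand), whose window lost the most; Sox1 at chr8:12395269-12395568 (plus strand), which lost Hi-C and FGFR1 HiChIP pairs; and Hes5 at chr4:154960673-154960972 (plus strand), the only promoter of the 30 with 2 RBPJ letter matches, a feature of 3.79% of other promoters.
Neurog1: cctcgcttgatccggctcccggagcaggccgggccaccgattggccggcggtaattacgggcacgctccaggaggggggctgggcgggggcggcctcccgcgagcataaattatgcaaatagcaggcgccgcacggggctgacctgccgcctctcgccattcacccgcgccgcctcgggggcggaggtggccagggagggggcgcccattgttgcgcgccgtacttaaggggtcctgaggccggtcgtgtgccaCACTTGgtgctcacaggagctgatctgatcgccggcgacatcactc
Neurod1: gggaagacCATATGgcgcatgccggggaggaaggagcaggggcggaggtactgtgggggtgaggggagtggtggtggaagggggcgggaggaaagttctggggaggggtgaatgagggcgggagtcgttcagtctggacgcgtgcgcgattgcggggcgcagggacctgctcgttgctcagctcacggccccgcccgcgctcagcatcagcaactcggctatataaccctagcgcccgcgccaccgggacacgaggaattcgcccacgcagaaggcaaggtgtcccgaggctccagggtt
Zic1: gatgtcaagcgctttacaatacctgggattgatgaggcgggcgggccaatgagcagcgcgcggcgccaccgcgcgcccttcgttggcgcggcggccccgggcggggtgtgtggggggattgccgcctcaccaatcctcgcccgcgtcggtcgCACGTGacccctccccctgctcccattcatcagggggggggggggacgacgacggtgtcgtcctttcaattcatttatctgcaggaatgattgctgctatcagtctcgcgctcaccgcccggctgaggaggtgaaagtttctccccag
En1: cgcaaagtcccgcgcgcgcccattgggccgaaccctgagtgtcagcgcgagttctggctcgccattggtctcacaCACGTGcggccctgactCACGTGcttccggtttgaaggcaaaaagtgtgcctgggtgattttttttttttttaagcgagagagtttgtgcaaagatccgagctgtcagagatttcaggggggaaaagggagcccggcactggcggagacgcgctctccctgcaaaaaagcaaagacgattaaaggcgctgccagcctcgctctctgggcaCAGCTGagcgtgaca
Sox1: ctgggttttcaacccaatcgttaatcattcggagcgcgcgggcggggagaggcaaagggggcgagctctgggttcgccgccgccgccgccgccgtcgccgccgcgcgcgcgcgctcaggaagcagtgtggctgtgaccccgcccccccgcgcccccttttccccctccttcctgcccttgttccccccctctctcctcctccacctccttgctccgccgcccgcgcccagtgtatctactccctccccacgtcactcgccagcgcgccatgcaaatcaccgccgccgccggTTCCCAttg
Hes5: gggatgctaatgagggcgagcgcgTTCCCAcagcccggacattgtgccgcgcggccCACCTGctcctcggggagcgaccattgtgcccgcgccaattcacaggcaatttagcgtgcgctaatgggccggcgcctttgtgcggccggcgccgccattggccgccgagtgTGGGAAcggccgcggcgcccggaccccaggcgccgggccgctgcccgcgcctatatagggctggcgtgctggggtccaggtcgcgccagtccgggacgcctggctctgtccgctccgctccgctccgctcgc

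In Hi-C, more of the neural induction genes lost than gained ends in NCC. Zic1, Otx2, Sox1 and Zic2 lost the most, and Neurod1, Tubb3 and Ncam1 were the genes that gained past the limit. Of 38 genes, 14 were called lower (36.8%) and 3 higher (7.89%). Among other protein-coding genes 27.0% were lower and 22.8% higher. Windows with many ESC ends fell more as a class, and ESC ends are also the denominator of the ratio. The share was also taken over other genes in the same decile of ESC Hi-C ends. This gave 28.5% lower and 18.0% higher. The median change was -0.22, against -0.04 for the other genes. It was -0.07 after subtracting the median of other genes of like strength, with 22 genes below that median and 16 above. With deciles of the mean of scaled ESC and NCC ends this difference was -0.15, and relative to all other genes it was -0.18.

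**Figure D1:**
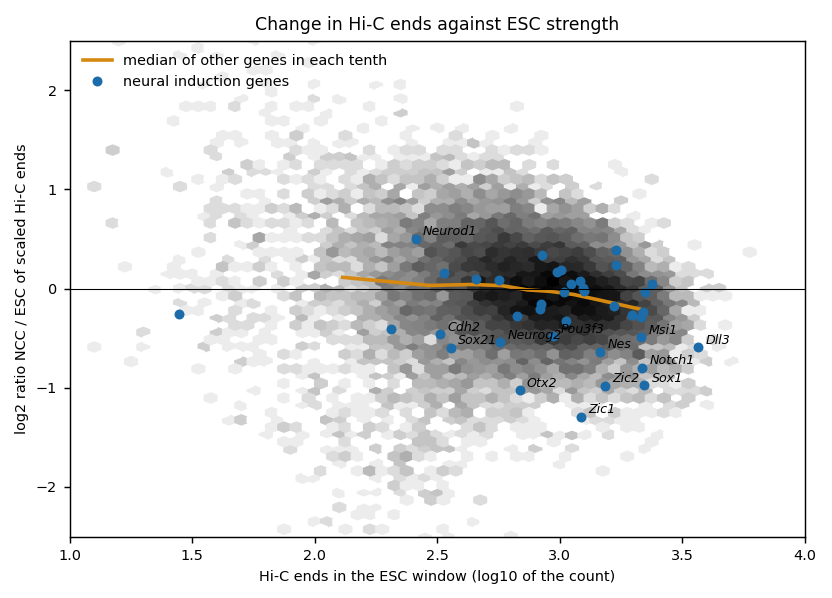
Log2 ratio of NCC over ESC Hi-C ends (vertical) against the log10 count of ESC Hi-C ends in the window (horizontal). Blue points are the 38 neural induction genes, grey hexagons the density of other protein-coding genes (darker is more genes, log scale), and the orange line the median of other genes in each decile except the lowest; Zic1, Otx2, Sox1 and Zic2 lie far under the line, at -1.29 to -0.98.

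Among the early neural Sox and Pax genes, 3 of 5 were lower and none higher, where 27.0% of other genes were lower and 22.8% higher. Sox1, among the first transcription factors to mark neuroectoderm, held 2211 Hi-C ends in ESC and 1151 in NCC. The ratio was -0.98 (-1.09 to -0.86), and 0.77 of this fall lay beyond that of genes of like strength. Its called anchor shrank from 22.1 to 12.7 kb, and per kb of anchor the ratio was -0.18. Its distal pairs fell by a similar amount, from 1098 to 582 (-0.95, -1.10 to -0.80). Sox21, a repressor of progenitor genes, went from 359 to 243 ends (-0.60, -0.85 to -0.34; -0.39 per kb of anchor). Pax6, the dorsal and eye field regulator, went from 1057 to 862 (-0.33, -0.48 to -0.18), just past the limit. Around the start of its longest protein-coding transcript, 6.61 kb away, it had 1311 and 1244 ends (-0.11). Sox4 and Sox11, which act in young neurons, stayed within it at 0.01 and 0.10.

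Of the 9 regional patterning genes, 3 lost Hi-C ends past the limit and 6 stayed within it, where 27.0% of other genes were lower. Zic1, a zinc finger regulator of dorsal neural tissue and neural crest, held 1224 ends in ESC and 511 in NCC (-1.29, -1.47 to -1.12). Anchor length in its window went from 27.3 to 16.2 kb, the ratio per kb of anchor was -0.54, and over anchors called in both cell types it was -2.19. Its distal pairs, of which there were 165 and 153, were within the limit (-0.14, -0.47 to 0.18). The ends within 1 Mb on either side of its start rose meanwhile, from 6641 to 13382 (0.98). Zic2, a forebrain regulator, went from 1534 to 796 ends (-0.98, -1.12 to -0.84) and from 615 to 367 distal pairs (-0.78, -0.97 to -0.59), with 25.9 and 16.1 kb of anchor and a ratio of -0.30 per kb. Otx2, the forebrain and midbrain regulator that is also active in pluripotent cells leaving the naive state, went from 686 to 345 ends (-1.03, -1.23 to -0.82). Its distal pairs went from 297 to 148 (-1.04, -1.33 to -0.75). Anchor length changed less there, from 15.8 to 11.9 kb, and the ratio was -0.61 per kb of anchor and -1.32 over anchors called in both cell types. By contrast Otx1, the Otx2 paralogue, stood at -0.15, and Gbx2, which opposes Otx2 at the border of midbrain and hindbrain, at -0.03. En1, Irx3, Lmx1a and Lmx1b lay between -0.04 and 0.09.

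The Notch genes did not move together. Dll3, a Delta family member that inhibits Notch in the same cell, had the highest ESC level of the 38 (88.4 ends per 1000000 of all ends). It went from 3675 to 2495 ends (-0.59, -0.68 to -0.50; -0.41 per kb of anchor). The receptor Notch1 went from 2167 to 1273 ends (-0.80, -0.92 to -0.69) and from 958 to 486 distal pairs (-1.01, -1.17 to -0.85). Its anchor fell from 29.1 to 15.7 kb, and the ratio of ends was 0.09 per kb of anchor. These values belong to the annotated outermost start, which lies 12.8 kb from the start of the longest protein-coding transcript. Around the latter start the counts were 2339 and 2806 ends (0.23), and 1036 and 1066 distal pairs (0.01). The ligands Dll1 and Dll4 stood at 0.04 and -0.18, and Dll4 alone of this pair lost distal pairs past the limit (749 and 570, -0.43, -0.59 to -0.27). Hes5, a Notch target, stood at -0.24. Hes1, also a Notch target, gained distal pairs, from 862 to 1118 (0.34, 0.21 to 0.47). With anchors taken by midpoint that ratio was -0.40.

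The 4 proneural bHLH genes included the largest rise and 2 falls past the limit, where 27.0% of other genes were lower. Neurod1, a neuronal differentiation factor, went from 258 to 374 ends (0.50, 0.24 to 0.77) and from 92 to 124 distal pairs (0.40, 0.00 to 0.80). Its anchor grew from 4.38 to 10.4 kb, and per kb of anchor the ratio was -0.75. Neurog2, which initiates neurogenesis in the cortex and spinal cord, went from 572 to 402 ends (-0.54, -0.75 to -0.33; -0.43 per kb of anchor). Neurod4 had few contacts, with 204 and 157 ends (-0.41, -0.75 to -0.07) and 56 and 26 distal pairs (-1.14, -1.87 to -0.45). The ends within 1 Mb on either side of its start fell by more (-1.12). Neurog1 stood at 0.19.

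Cytoskeletal and adhesion genes split. Tubb3, the neuronal beta-tubulin, gained ends, 1689 and 2257 (0.38, 0.28 to 0.49), and distal pairs, 648 and 903 (0.45, 0.30 to 0.59). Ncam1, a neural cell adhesion molecule, gained 848 to 1101 ends (0.34, 0.20 to 0.49) and 363 to 491 distal pairs (0.40, 0.20 to 0.60). For both genes the ratio per kb of anchor was below 0 (-0.12 and -0.16). The longest protein-coding transcript of Ncam1 starts 230 kb away. Around that start the counts were 513 and 550 ends (0.07), and 196 and 214 distal pairs (0.09). Nes, the intermediate filament of neural progenitors, lost ends, 1460 and 963 (-0.63, -0.77 to -0.50), though the ratio was -0.08 per kb of anchor, and with 20 kb on each side it was 0.24. N-cadherin, Cdh2, went from 325 to 242 (-0.46, -0.72 to -0.19), with 8.26 and 5.76 kb of anchor and a ratio of 0.06 per kb. Vim and Fabp7, the latter a lipid carrier of radial glia, were within the limit in ends, as were both Olig genes. In distal pairs Vim was called lower, with 264 and 210 (-0.36, -0.63 to -0.10). Map2, the dendritic microtubule protein, had 28 and 24 ends, the lowest of the 38, too few for a value to be read. Of the other regulators Msi1, an RNA-binding protein of progenitors, was lower (-0.49), but at 5 kb on each side of its start the ratio was 0.35. Pou3f3 alone of the 3 POU genes, which encode neural progenitor factors, was called lower (-0.48).

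For Hi-C distal pairs as a whole, 14 of 37 genes with a value were lower (37.8%) and 4 higher (10.8%). The other genes gave 29.2% and 19.8%, and other genes of like strength 30.2% and 14.4%. The median was -0.12 against -0.08, and 0.00 relative to like strength. In ESC, Dll3, Sox1 and Lmx1b had the most distal pairs (62.3, 52.8 and 47.1 per 1000000 read pairs), and Map2, Neurod4 and Neurod1 the fewest (0.289, 2.69 and 4.43).

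**Figure D2:**
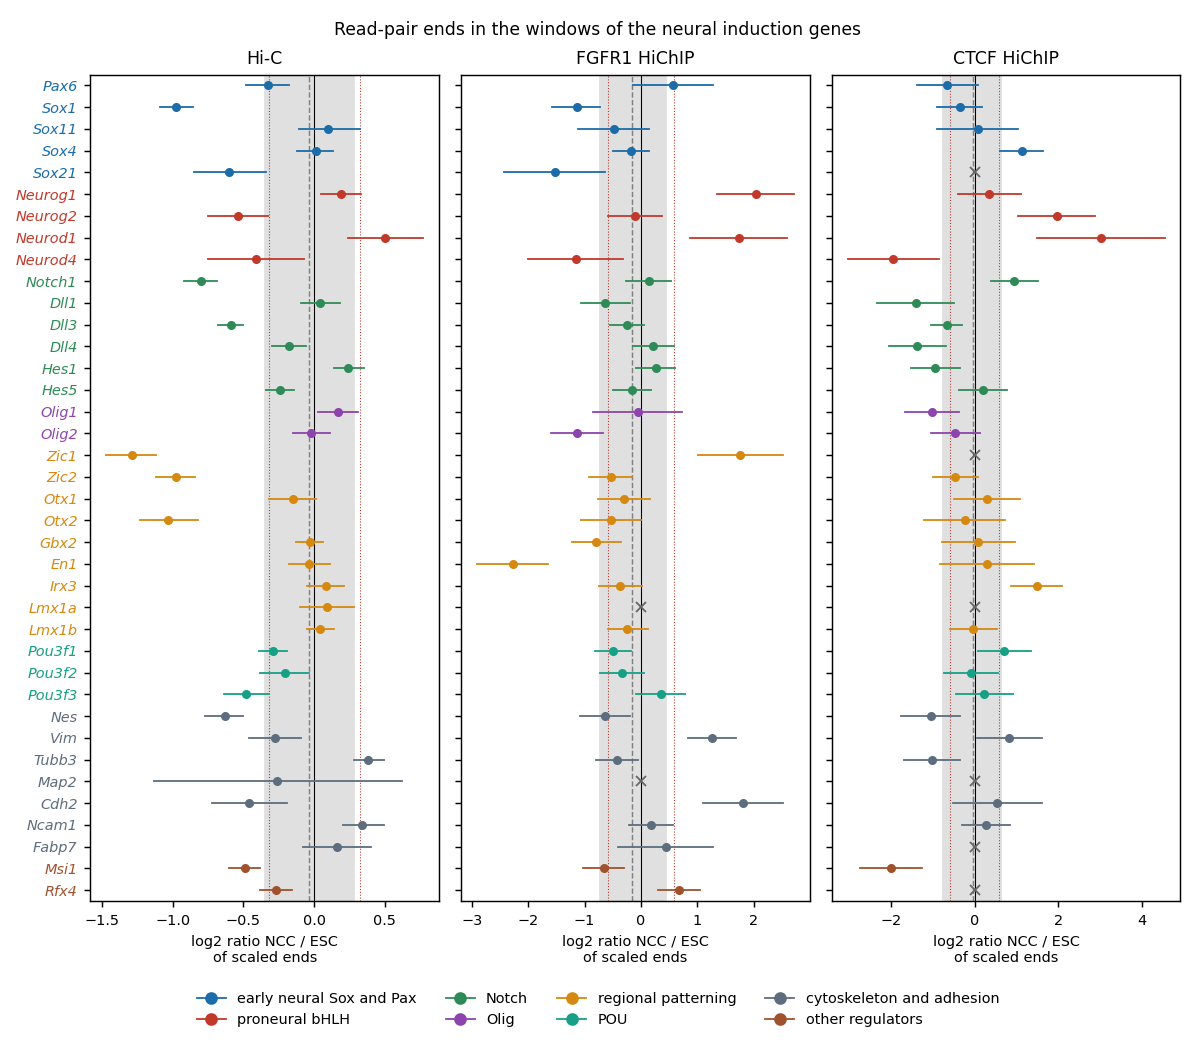
Log2 ratio of NCC over ESC ends, scaled to table totals, for each neural induction gene in Hi-C, FGFR1 HiChIP and CTCF HiChIP; bars are 95% intervals from counting error and colours are gene roles. The grey band is the middle 50% of other protein-coding genes, the dashed line their median, red dotted lines the fold limits, and a cross at 0 marks a gene with no ratio because 1 library had no anchor there; Sox1, Zic1, Zic2 and Otx2 stand left of the Hi-C band.

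Lists of related genes gave context for Hi-C ends. The background was 27.0% called lower and 22.8% called higher, over protein-coding genes other than the neural induction genes. Among 26 other Notch pathway genes, 8 were higher and 7 lower (median -0.05); the Hes3 window held 1634 and 3901 ends (1.22) and that of Hey2 585 and 314 (-0.93), both genes encoding repressors of the Hes and Hey family. Of 11 other proneural bHLH genes, 2 were higher and 7 lower (median -0.41), Bhlhe22 having fallen the most, from 406 to 168 (-1.31). Of 15 pluripotency genes, none was higher and 7 were lower (median -0.29), with Klf5 at -0.77. Of 12 mesoderm and endoderm genes, 4 were higher and 4 lower (median -0.04). The early retinoic acid response genes ran the other way, 7 of 11 with a value being higher and none lower (median 0.35). Left out of these 11 is Rarb, which had 183 ends in ESC and 0 in NCC and so has no ratio. Among the higher were Dhrs3 (260 and 874 ends, 1.72) and Cyp26b1 (952 and 2258, 1.21), which encode a retinaldehyde reductase and a retinoic acid hydroxylase. Relative to genes of like strength, the median was 0.06 for the other Notch pathway genes and -0.43 for the other proneural bHLH genes. It was -0.19 for the pluripotency genes, 0.03 for the mesoderm and endoderm genes and 0.44 for the retinoic acid response genes.

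FGFR1 HiChIP, with far fewer read pairs than Hi-C, changed in both directions, from -2.27 to 2.03. Neurog1, Cdh2, Zic1, Neurod1 and Vim rose the most in ends, and En1, Sox21, Neurod4, Sox1 and Olig2 fell the most. Of 36 genes with a value, 6 were higher (16.7%) and 9 lower, where other genes gave 20.8% and 30.7% and genes of like strength 16.5% and 33.8%. For distal pairs 5 of 35 were higher (14.3%) and 9 lower (25.7%), against 17.5% and 32.2% of other genes, and 13.1% and 35.9% at like strength. The median of other genes was itself below 0 (-0.16 for ends and -0.22 for distal pairs), so that scaling to the median gene would raise every FGFR1 value by 0.16 or 0.22. The median of the neural induction genes was -0.24 for ends and -0.04 for distal pairs, or 0.06 and 0.24 relative to genes of like strength.

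The proneural genes Neurog1 and Neurod1 gained. Neurog1 went from 23 to 113 FGFR1 HiChIP ends (2.03, 1.34 to 2.71) and from 10 to 43 distal pairs (1.83, 0.82 to 2.99). Neurod1 went from 18 to 72 ends (1.73, 0.87 to 2.58) and from 3 to 25 distal pairs (2.79, 1.08 to 5.16). For both, called anchor grew, from 1.99 to 6.28 kb and from 3.19 to 7.32 kb, and the ratios per kb of anchor were 0.37 and 0.53. At Neurod1 the anchor called in both cell types held 18 and 20 ends (-0.12). Neurog2 did not change past the limit (90 and 101 ends), and Neurod4 fell from 37 to 20 ends (-1.16, -2.0 to -0.32) over an unchanged 5.64 kb of anchor.

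Zic1 and Cdh2 gained FGFR1 HiChIP ends while they lost Hi-C ends. Zic1 held 20 ends in ESC and 82 in NCC (1.76, 1.01 to 2.52), and 7 and 33 distal pairs (1.97, 0.77 to 3.39). Its anchor grew from 1.73 to 9.02 kb, and per kb the ratio was -0.61. For Cdh2 the counts were 23 and 97 ends (1.81, 1.10 to 2.51), and 12 and 51 distal pairs (1.82, 0.89 to 2.86), with 3.21 and 11.6 kb of anchor; with 20 kb on each side of the start the ratio of ends was -0.27. Vim, an intermediate filament of progenitors, rose from 78 to 226 ends (1.26, 0.84 to 1.69) and from 27 to 68 distal pairs (1.06, 0.40 to 1.76), and was also above 0 per kb of anchor (0.21) and over anchors called in both cell types (0.49).

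The largest fall in FGFR1 HiChIP lay at En1, which patterns the midbrain and hindbrain. Of the 5 early neural Sox and Pax genes, 2 were called lower in ends, where 30.7% of other genes were lower. Pax6 stood at 0.57. En1 went from 116 to 29 ends (-2.27, -2.91 to -1.64) and from 41 to 11 distal pairs (-2.17, -3.28 to -1.18), while its Hi-C ends numbered 1037 and 1034. Called anchor in the En1 window fell from 13.6 to 2.54 kb, and per kb of anchor the ratio was 0.15. Over anchors called in both cell types, 106 ends in ESC stood against 29 in NCC (-2.14). The ESC ends lay in 3 such anchors, but the window held only 1 NCC anchor, so this ratio compares unlike anchor sets. Sox1 went from 163 to 89 ends (-1.14, -1.57 to -0.72) and from 78 to 40 distal pairs (-1.23, -1.82 to -0.67). Its anchor fell from 10.5 to 4.85 kb, and the ratio of ends per kb of anchor was -0.03. Olig2, the motor neuron and oligodendrocyte regulator, went from 135 to 74 ends (-1.14, -1.60 to -0.68) and from 65 to 34 distal pairs (-1.21, -1.85 to -0.59). There the anchor fell from 8.84 to 3.92 kb, and the ratio of ends was 0.03 per kb and -1.12 over the anchor called in both cell types. Sox21 had 36 and 15 ends (-1.53, -2.43 to -0.64), and 18 and 8 distal pairs (-1.44, -2.85 to -0.17), but with 7.23 and 1.71 kb of anchor the ratio of ends turned to 0.55 per kb. Zic2 fell in distal pairs, from 71 to 41 (-1.06, -1.65 to -0.49), more than in ends (-0.54). Lmx1a had 59 ends in ESC and no anchor in NCC, and Map2 no anchor in ESC and 19 ends in NCC, so neither has a ratio.

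The highest FGFR1 HiChIP levels in ESC were at Dll3, Pou3f1 and Sox4 (50.6, 41.8 and 38.3 ends per 1000000), and the lowest were at Map2, where no anchor was called, Neurod1 (3.36) and Zic1 (3.73). In distal pairs, Sox4, Pou3f1 and Sox1 led (30.2, 29.9 and 29.1 per 1000000 read pairs), with Map2, Neurod1 and Zic1 last (0.0, 1.12 and 2.61). The Notch ligands and targets were within the limit except Dll1 (123 and 96 ends, -0.63, -1.06 to -0.19).

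**Figure D3:**
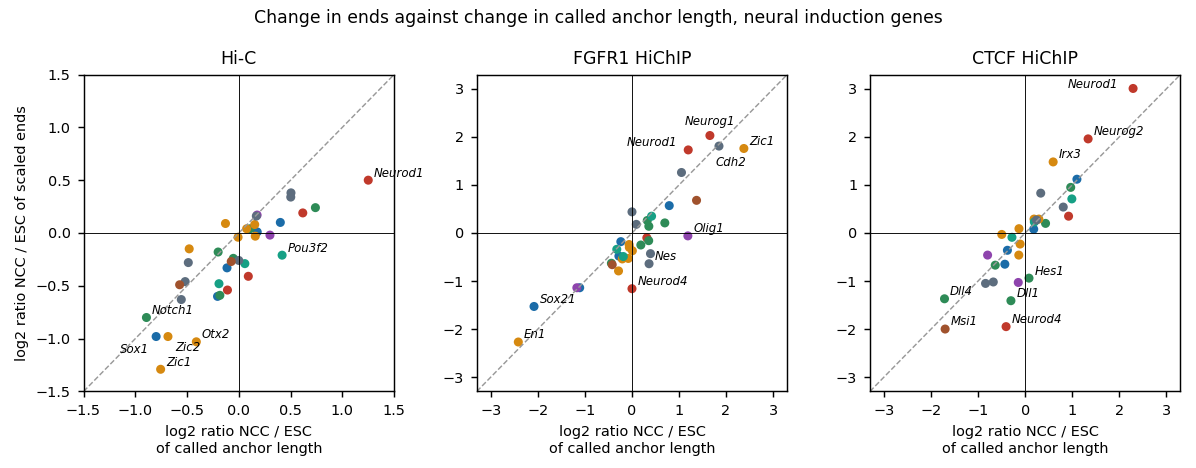
Log2 ratio of NCC over ESC scaled ends (vertical) against log2 ratio of called anchor length in the window (horizontal) for the neural induction genes with a value in each assay; colours are gene roles and the dashed line marks equal change. Most points follow the line, and the farthest below it are Neurod1 in Hi-C (-0.75), Olig1 in FGFR1 HiChIP (-1.25) and Neurod4 in CTCF HiChIP (-1.54).

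Set against Hi-C, FGFR1 HiChIP ends at these genes were slightly fewer than at other genes, without matching on Hi-C strength. The share of FGFR1 HiChIP ends over the share of Hi-C ends had a log2 median of -0.38 in ESC (36 genes with 20 or more HiChIP ends) and of -0.46 in NCC (35 genes), where other genes gave -0.27 and -0.40. None of the 36 reached 1 in ESC, where 7.89% of other genes did. In NCC, Cdh2 (1.40) and Vim (1.39) did, 2 of 35, where 9.98% of other genes did. Zic1 rose from -2.98 to 0.08, and En1 fell from -0.20 to -2.44. For CTCF HiChIP the medians were -0.46 in ESC (31 genes) and -0.19 in NCC (28 genes). Other genes gave -0.06 (14026 genes) and -0.04 (12803 genes). A window with few Hi-C ends reaches 20 HiChIP ends only at a high ratio. Other genes had fewer Hi-C ends, and the part this limit played in either HiChIP was not tested.

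CTCF HiChIP was the shallowest assay, and 32 of the 38 genes had a value for ends. Neurod1, Neurog2, Irx3, Sox4 and Notch1 rose the most, and Msi1, Neurod4, Dll1, Dll4 and Nes fell the most. Of these, 7 were higher (21.9%) and 10 lower (31.2%), where other genes gave 26.0% and 30.2%, and genes of like strength 23.7% and 30.4%. For distal pairs 6 of 26 were higher (23.1%) and 10 lower (38.5%), against 25.4% and 26.2% of other genes, and 23.0% and 26.3% at like strength. The median was 0.02 for ends and -0.04 for distal pairs, against -0.05 and 0.00.

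Irx3, a homeobox gene of posterior neural patterning, rose from 35 to 85 CTCF HiChIP ends (1.48, 0.88 to 2.09) and from 22 to 43 distal pairs (1.17, 0.40 to 1.98). Its ratio was 0.89 per kb of anchor and 0.88 over anchors called in both cell types. Neurog2 went from 16 to 54 ends (3.88-fold, log2 interval 1.04 to 2.87) and Neurod1 from 4 to 28 (3.01, 1.48 to 4.54), the latter with 1.33 and 6.52 kb of anchor. Sox4 went from 52 to 98 ends (1.12, 0.60 to 1.64), but held 38 and 31 in anchors called in both cell types. Notch1 went from 53 to 89 ends (0.95, 0.38 to 1.52) and from 17 to 34 distal pairs (1.20, 0.32 to 2.13), and around its other start from 93 to 87 ends (0.11). Vim had 7 and 23 distal pairs (1.92, 0.65 to 3.38). Distal pairs at Gbx2 numbered 9 and 14 (0.84, -0.47 to 2.23) and at Sox4 35 and 47 (0.63, -0.03 to 1.30), with intervals that included 0.

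The falls in CTCF HiChIP ends included 4 of the 6 Notch genes, in a comparison where 30.2% of other genes were lower. Of 25 other Notch pathway genes with a value, 9 were lower and 4 higher (median -0.25). Dll1 went from 49 to 16 ends (-1.41, -2.33 to -0.50), Dll4 from 86 to 29 (-1.37, -2.05 to -0.68), Hes1 from 88 to 40 (-0.94, -1.52 to -0.35) and Dll3, the highest in ESC, from 233 to 127 (-0.67, -1.05 to -0.30). At Dll4 the called anchor fell from 13.1 kb to 4001 bp, and the ratio was 0.35 per kb of anchor and 0.51 over the anchor called in both cell types. Dll3 was at -0.04 per kb of anchor, and at 0.19 with anchors taken by midpoint. Msi1 went from 92 to 20 ends (-2.0, -2.75 to -1.25), with 6.84 and 2.1 kb of anchor and a ratio of -0.30 per kb, within the limit. Neurod4 went from 40 to 9 (-1.95, -3.04 to -0.86; -1.54 per kb of anchor) and Nes from 62 to 26 (-1.05, -1.76 to -0.34; -0.21 per kb of anchor). The largest falls in distal pairs were at Olig1, a glial lineage regulator, from 36 to 9 (-1.80, -3.04 to -0.72), Dll4, from 34 to 11 (-1.43, -2.56 to -0.41), Nes, from 33 to 12 (-1.26, -2.35 to -0.27), Tubb3, from 24 to 9 (-1.21, -2.5 to -0.06), and Dll1, from 18 to 7 (-1.16, -2.66 to 0.17). Tubb3 thus lost CTCF HiChIP pairs while its Hi-C pairs rose.

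In 6 windows no CTCF HiChIP ratio could be formed. Zic1, Lmx1a and Rfx4 had 34, 24 and 41 ends in ESC and no anchor in NCC, and Sox21, Map2 and Fabp7 had no anchor in ESC and 53, 19 and 6 ends in NCC. A missing anchor says only that none was called at this depth. The highest ESC levels were at Dll3, Zic2 and Sox1 (95, 43.2 and 37.9 ends per 1000000). In distal pairs Dll3, Hes1 and Sox1 led with 63.6, 31.8 and 31.0 per 1000000 read pairs, and Neurod1 joined the 3 genes without an ESC anchor at 0 pairs.

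The side on which distal Hi-C pairs lay moved at some genes, most of which had lost Hi-C ends. Downstream, in the direction of transcription, lay 24.2% (20.9 to 27.8, exact interval) of the Zic2 pairs in ESC and 44.7% (39.5 to 49.9) in NCC. For Zic1 the shares were 27.3% (20.6 to 34.7) and 52.3% (44.1 to 60.4). Otx2 went from 30.3% to 45.9%, Pax6 from 35.3% to 48.9% and Cdh2 from 56.6% to 80.4%. Exact intervals of the 2 cell types did not overlap for these 5 of 37 genes, where 5.16% of other genes rose in this way. Sox4 (64.7% and 54.8%) and Neurod4 (78.6% and 38.5%, of only 56 and 26 pairs) moved upstream in NCC without overlap, as 4.9% of other genes did. Neither share of other genes was matched on pair count. The neural induction genes had more distal Hi-C pairs (ESC median 444, against 252), which narrows exact intervals. Since anchors were called anew in each library, a side can also lose or gain called anchor, and the part this played was not tested.

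**Figure D4:**
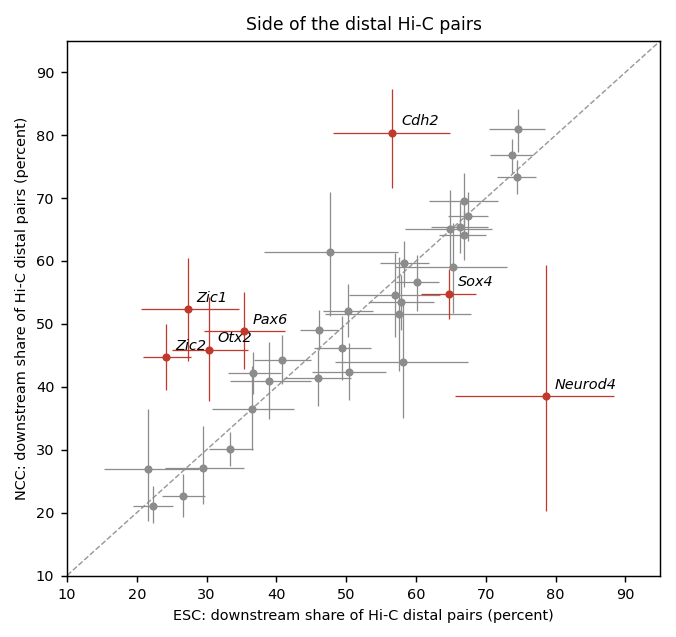
Percentage of distal Hi-C pairs that lay downstream of the start in NCC (vertical) against ESC (horizontal) for 37 neural induction genes; bars are exact 95% binomial intervals and the dashed line marks equal shares. Red points are the 7 genes whose intervals in ESC and NCC do not overlap, with Zic1, Zic2, Otx2, Pax6 and Cdh2 above the line and Sox4 and Neurod4 below it.

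At 3 of these 7 genes short contacts fell as well. The share of a window's Hi-C pairs with both ends in 1 anchor went from 23.6% to 7.71% at Zic2, from 22.2% to 10.9% at Zic1 and from 13.3% to 6.86% at Otx2. It fell without overlap of the intervals at 6 of 38 genes, the others, whose downstream shares overlapped between the cell types, being Sox11 (21.4% and 11.5%), Vim (17.3% and 11.1%) and Ncam1 (14.9% and 8.71%). Among other genes 10.1% fell in this way and 5.19% rose, and none of the 38 rose. These percentages of other genes were not matched on pair count either. At Pax6, Cdh2 and Sox4 the share hardly moved (12.1% and 11.6%, 11.1% and 10.6%, and 11.1% and 11.3%), and at Neurod4 it was 8.33% and 14.1% with overlapping intervals. Called anchor was shorter in NCC at Zic1, Zic2, Otx2 and Vim, and longer at Sox11 and Ncam1.

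The distances of pairs differed little from those at other genes. Pairs 250 kb to 1 Mb long made up 28.6% of 18510 distal pairs at the neural induction genes in ESC and 29.0% of 16814 in NCC, against 25.9% and 25.6% at other genes. Pairs over 1 Mb were a median of 16.1% (ESC) and 16.5% (NCC) of a window's pairs, against 16.7% and 17.4% at other genes. Inter-chromosomal pairs made up a median of 11.2% (ESC) and 12.8% (NCC) of a window's pairs, compared with 12.4% and 14.2% at other genes.

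Several genes had a distal partner that stood out from the distance decay. For each gene the 10 kb bin with the highest ratio of Hi-C pairs to the number expected from distance was found, pooling ESC and NCC, among bins with 20 or more pairs. The highest ratio was at Irx3, whose partner 555 kb upstream (chr8:92352067-92362066) holds the start of its paralogue Irx5. There 33 pairs in ESC and 22 in NCC were 36.6 and 23.2 times the expectation, and the ratio of NCC over ESC was -0.62 (-1.47 to 0.20). When the strength of the bin entered the expectation too, the ratio over both cell types went from 29.8 to 10.6 at Irx3, from 16.7 to 6.08 at Neurog1 and from 10.5 to 3.42 at Zic2. The Neurog1 partner, 425 kb downstream (chr13:55822163-55832162), overlaps Pitx1, a hindlimb and pituitary homeobox gene. Its 36 pairs in ESC (32.5 times the expectation) became 4 in NCC (3.11 times), a change of -3.20 (-5.15 to -1.72), and over 30 kb around the bin 48 became 10. The anchors of that bin were of similar length and strength in both cell types (10.2 and 10.8 kb, 1221 and 1009 ends).

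Sox1 had 29 pairs in ESC and 4 in NCC (-2.89, -4.86 to -1.38) with a bin 435 kb upstream that overlaps no coding gene (chr8:11955295-11965294). The bin held 410 and 390 ends in 8.53 and 6.57 kb of anchor, and all distal pairs of Sox1 fell too (-0.95). At Zic2 the partner 215 kb upstream, within Clybl, went from 53 to 14 pairs (-1.95, -2.92 to -1.08), while its anchor shrank from 14.5 to 8.29 kb. Hes1 gained pairs with a bin 325 kb upstream, 17 and 44 (1.34, 0.50 to 2.24), at 783 and 929 bin ends. Dll1 had 4 and 63 pairs with a bin 305 kb downstream that overlaps Ermard (3.94, 2.52 to 5.86), but called anchor there grew from 1.67 to 11.8 kb, and over 30 kb the counts were 52 and 91. Neurog2 had 13 and 12 pairs with its partner at 115 kb (-0.15, -1.41 to 1.10). Pou3f1 had 14 and 21 at 425 kb (0.55, -0.49 to 1.64). The Msi1 partner at 65 kb fell from 139 to 98 pairs (-0.54, -0.93 to -0.15). The Vim partner within Cubn had 24 and 11 (-1.16, -2.34 to -0.07). In HiChIP these bins held few pairs, at most 7 in FGFR1 and at most 5 in CTCF libraries. The bins were picked as the highest of each gene over both cell types, and a bin could be picked through 1 of them alone, as at Neurog1, Sox1 and Dll1. Their height and their difference between ESC and NCC are therefore descriptions.

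**Figure D5:**
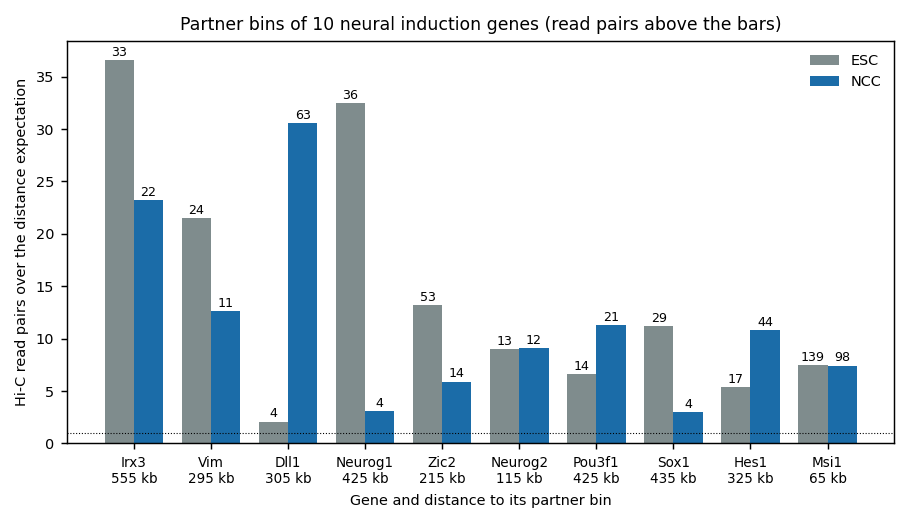
Hi-C read pairs between the gene window and its partner bin, divided by the number expected from distance (vertical, linear from 0), in ESC (grey) and NCC (blue) for the 10 neural induction genes with the highest ratio; the distance to the bin is under each name, counts are above the bars and the dotted line marks the expectation. Neurog1 and Sox1 fall to 4 pairs in NCC, and Irx3 stays above 20 times the expectation in both.

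Contacts between the neural induction genes themselves were rare. Olig2 and Olig1, which lie 44.315 kb apart on chromosome 16, shared 79 Hi-C pairs in ESC and 88 in NCC. Between windows on different chromosomes there were 5 Hi-C pairs in ESC (exact Poisson interval of this count 1.62 to 11.7), where 2.05 were expected. In NCC there were 0 (interval up to 3.69), where 1.70 were expected. The HiChIP libraries held at most 1 such pair each.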

How the data were processed

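Hi-C and HiChIP read pairs were mapped by the authors to mm10 with HiC-Pro, and hichipper then called anchors in each pooled library and counted the pairs between them, without a false discovery filter. The deposited score is a whole-number count of read pairs per interaction; versions are not given in the sources used here. The 2 replicates of each group had been merged, so each value rests on 1 library. TSS came from GENCODE M21, on GRCm38. A pair inside 1 anchor counted as 2 ends. Intervals for ends used the delta method over pairs; those for distal pairs and shares were exact (Clopper-Pearson). Genes were binned in deciles of ESC Hi-C ends. Analyses used Python 3.11.15, numpy 2.4.6, pandas 2.3.3 and scipy 1.17.1. The ratios, fold calls and exact intervals of distal pairs were tested on simulated counts. The counting of ends and pairs in windows was not part of that test. The genes and comparison lists were chosen with earlier results of these data known. Named were, per assay and measure, up to 5 rises and 5 falls past the limit, the 3 highest and 3 lowest ESC levels, partner bins of 10 genes and at most 4 genes per list; others named by role were described after their values were seen. Alternatives covered scaling, window, start site, anchors, distance, score and fold limit.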

Additional observations from a re-analysis of the deposited data

How the results depend on the processing

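No paired analysis was possible because the replicates had been merged before deposit. Of 288 alternative values of the medians and counts, 256 stayed within the counting spread or within 1.5 times. Hi-C ends: 5 genes were higher with 5 kb or 20 kb on each side and over anchors called in both cell types (an alternative chosen after seeing the data, as were scaling by anchor length and, for distal pairs, the 5 kb, 20 kb, midpoint and longest-transcript windows), 1 per kb of anchor, and 0 higher and 8 lower at a 1.5-fold limit; the median was -0.05 with 20 kb, and -0.24 relative to like strength with anchors taken by midpoint. Hi-C distal pairs: 9 lower with 20 kb, 2 higher by midpoint and with the start of the longest transcript, 0 higher and 7 lower at 1.5-fold, and -0.20 relative to like strength at 20 to 250 kb. FGFR1 HiChIP ends: 1 higher over anchors in both cell types, 0 per kb of anchor, 5 lower at 2-fold; distal pairs: 2 higher with 20 kb and 3 by midpoint. CTCF HiChIP ends: 11 higher without pairs inside 1 anchor, 5 lower over anchors in both cell types, 3 higher and 4 lower per kb of anchor, 4 higher at 2-fold; distal pairs: 5 lower with 5 kb, 2 higher and 4 lower at 100 kb to 1 Mb, 3 higher and 2 lower with a median of 1.13 at scores of 2 or more, and 3 higher and 6 lower at 2-fold.

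Of 97 called values of single genes, some stayed past the limit under every alternative that gave a value. In Hi-C these were Zic1, Otx2 and Neurod4 for ends, and Neurod4, Otx2, Sox1, Zic2, Dll4 and Tubb3 for distal pairs. In FGFR1 HiChIP there were none for ends, and Sox21, Sox1, Olig2, Zic2 and Neurod1 for distal pairs. In CTCF HiChIP they were Neurod4, Irx3, Neurog2 and Neurod1 for ends, and Olig1, Nes, Tubb3, Dll1, Msi1, Irx3 and Vim for distal pairs. The alternatives per kb of anchor and over anchors called in both cell types covered ends only. Distal pairs therefore faced no alternative that allowed for anchor length. For Neurod1 in FGFR1 distal pairs only 5 alternatives gave a value.

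Signs turned in 55 of 948 alternative values. Per kb of anchor, Hi-C ends became 0.06 at Cdh2, 0.08 at Msi1, -0.16 at Ncam1, -0.75 at Neurod1, 0.09 at Notch1 and -0.12 at Tubb3; FGFR1 ends -0.04 at Cdh2, 0.15 at En1, 0.03 at Olig2, -0.69 at Rfx4, 0.55 at Sox21 and -0.61 at Zic1; and CTCF ends 0.35 at Dll4, -0.02 at Notch1 and -0.28 at Pou3f1. Over anchors called in both cell types, Hi-C ends became 0.14 at Msi1 and 0.78 at Notch1, FGFR1 ends 0.97 at Dll1, -0.12 at Neurod1 and -0.24 at Rfx4, and CTCF ends 0.51 at Dll4, -0.88 at Notch1, 0.12 at Pax6 and -0.09 at Sox4. By anchor midpoint, Hi-C ends became 0.35 at Msi1, 0.22 at Nes and 0.27 at Notch1, Hi-C distal pairs 0.01 at Dll3, -0.40 at Hes1, 0.23 at Msi1, 0.05 at Nes and 0.24 at Notch1, FGFR1 distal pairs -0.05 at Cdh2, CTCF ends 0.19 at Dll3 and CTCF distal pairs 0.33 at Hes5. With 5 kb on each side, Hi-C ends became 0.35 at Msi1, Hi-C distal pairs 0.01 at Dll3, -0.08 at Hes1 and 0.23 at Msi1, FGFR1 ends 1.70 at Msi1 and 0.31 at Sox21, FGFR1 distal pairs -0.05 at Cdh2 and 2.05 at Msi1, CTCF ends 0.51 and distal pairs 0.06 at Dll4. With 20 kb, Hi-C ends became 0.24 at Nes, Hi-C distal pairs 0.02 at Nes, -0.03 at Neurod1 and 0.13 at Vim, FGFR1 ends -0.27 and distal pairs -0.12 at Cdh2, and FGFR1 distal pairs 0.03 at Sox11. With the start of the longest transcript, Notch1 Hi-C ends became 0.23 and distal pairs 0.01. At scores of 2 or more, Nes CTCF ends became 0.24. The cause of these turns was not tested. CTCF HiChIP depth left 12 genes without a distal ratio.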
